A study of Mus musculus with 20 samples.

Results

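Ctsd-/- breast tumor cells that had been held in starvation medium for 12 weeks were compared with cells of the same line after 10 days in that medium. The comparison took 6 of the 20 samples of the series, chosen by their labels and not by any measured value: 3 replicates of the long-term group, 1% FCS LT, and 3 of the short-term group, 1% FCS. Both groups were of Ctsd-/- genotype, so the change was read within the deficient line and was not corrected for wild type. The other samples were 6 of Ctsd+/+ cells under the same conditions and 8 of tumors. The tumors were not used here. The Ctsd+/+ samples entered the filter on low counts, the scaling, the average level of each gene and the estimate of the spread. They also served for comparison where they are named.

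All 6 samples came from spontaneously immortalized cells of the breast tumor of a single MMTV-cre;Ctsd-/- PyMT mouse. PyMT mice carry the polyoma middle T oncogene in the mammary epithelium, and MMTV-cre deletes the floxed Ctsd alleles in the same epithelium. The Ctsd+/+ cells also stem from a single mouse, so that a difference between genotypes cannot be told apart from one between these lines. Both groups grew in DMEM/F12 with 1% fetal calf serum (FCS), glutamine and antibiotics. The replicates are labelled biological, and the sources do not say how they were kept apart during culture. The p-values below therefore measure the spread between these samples, of which there are 3 in each group.

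Cathepsin D is the main aspartic protease of the lysosome, where it degrades proteins delivered by endocytosis and autophagy. Amino acids released in the lysosome feed mTORC1, the kinase complex that couples nutrient supply to growth. Tumor cells under lasting starvation can enter quiescence, a reversible arrest, and epithelial cells can shift along an axis between an epithelial state with E-cadherin and desmosomes and a mesenchymal state with vimentin and an interstitial matrix, a shift known as epithelial-mesenchymal transition (EMT). The comparison asks what had become different in the transcriptome of the Ctsd-deficient cells by the time of long-term culture, and how far the long-term replicates differed among themselves.

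Between 33622831 and 40239762 reads per library were counted on genes (median 38121766). Levels are given as CPM, the count of a gene scaled to a common library total, after adjustment of the totals by the trimmed mean of M-values (TMM). Of 15178 genes that passed a filter on low counts, those with an adjusted p under 0.05 by the two-sided quasi-likelihood test of edgeR were called. Fold changes are on the log2 scale, 12 weeks minus 10 days. The library label holds an LR number whose meaning is not stated: 10-day replicate 1 and 12-week replicate 3 each have one of their own within these 6 libraries, and the remaining 4 share another. The share of mitochondrial transcripts was 2.56%, 1.52% and 1.43% in the 10-day replicates 1, 2 and 3 and 2.12%, 2.26% and 2.38% in the 12-week replicates, so that 10-day replicate 1 lay above, and replicates 2 and 3 below, all 12-week libraries. The part of this share in the results was not tested. In every alternative named below, "without" a replicate means the same fit with that library left out. Such a fit has fewer replicates in 1 group. A call lost in it therefore does not show that the call rested on that library.

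Ctsd itself (chr7:142375911-142388038, GRCm38) checked the labels. It counted 192, 141 and 131 CPM in the 10-day replicates 1, 2 and 3 and 123, 114 and 151 CPM in the 12-week replicates 1, 2 and 3. The groups overlapped, and the change of -0.26 (SE 0.327, adjusted p = 0.731) was not called. All of these values lay below those of the 6 Ctsd+/+ libraries, which ranged from 1267 to 4199 CPM. The counts are per gene and do not show from which exons the remaining reads came. Zfp251, a zinc finger gene at 21.2 to 33.2 CPM in the Ctsd+/+ cells, counted 0.608, 0.329 and 0.384 CPM at 10 days and 0, 0.0258 and 0.0242 CPM at 12 weeks in the Ctsd-/- cells. With 50 counts in all at 10 days and 2 at 12 weeks it fell 27.4-fold (95% exact interval 7.19 to 232, which covers counting error only; adjusted p = 0.00344).

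Of the 15178 genes, 238 were higher at 12 weeks (1.57% of those tested) and 123 lower (0.810%). With a change of more than 2-fold added to the rule, 169 were higher (1.11%) and 56 lower (0.369%). Every 12-week replicate lay above every 10-day replicate in 13.5% of all genes and below in 11.9%, and 2727 genes had an unadjusted p under 0.05. The median change of all genes was -0.00. The number of calls changed when a library was left out. It fell to 31 higher and 30 lower without 10-day replicate 3, to 33 and 30 without 10-day replicate 2, and to 65 and 26 without 12-week replicate 2. It was 150 and 73 without 10-day replicate 1, 113 and 35 without 12-week replicate 1, and 274 and 120 without 12-week replicate 3. With the 6 Ctsd-/- samples fitted alone, 339 were higher and 204 lower of 13969 genes tested. With the fit limited to the shared LR number, 515 were higher and 241 lower. That fit held the 4 Ctsd-/- libraries of this number and also the Ctsd+/+ libraries that carry it. With the LR number as a covariate over all 12 cell samples, 719 were higher and 479 lower. In the same fits Vim rose by 5.98 and 5.46, Zeb1 by 4.77 and 4.21, Adgrl3 by 1.84 and 1.81, and Cdh1 fell by 1.21 and 1.18. A core of 25 higher and 19 lower genes remained called without each of the 6 libraries in turn. These 44 genes are a reading of the calls chosen after their values were seen.

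**Figure D1:**
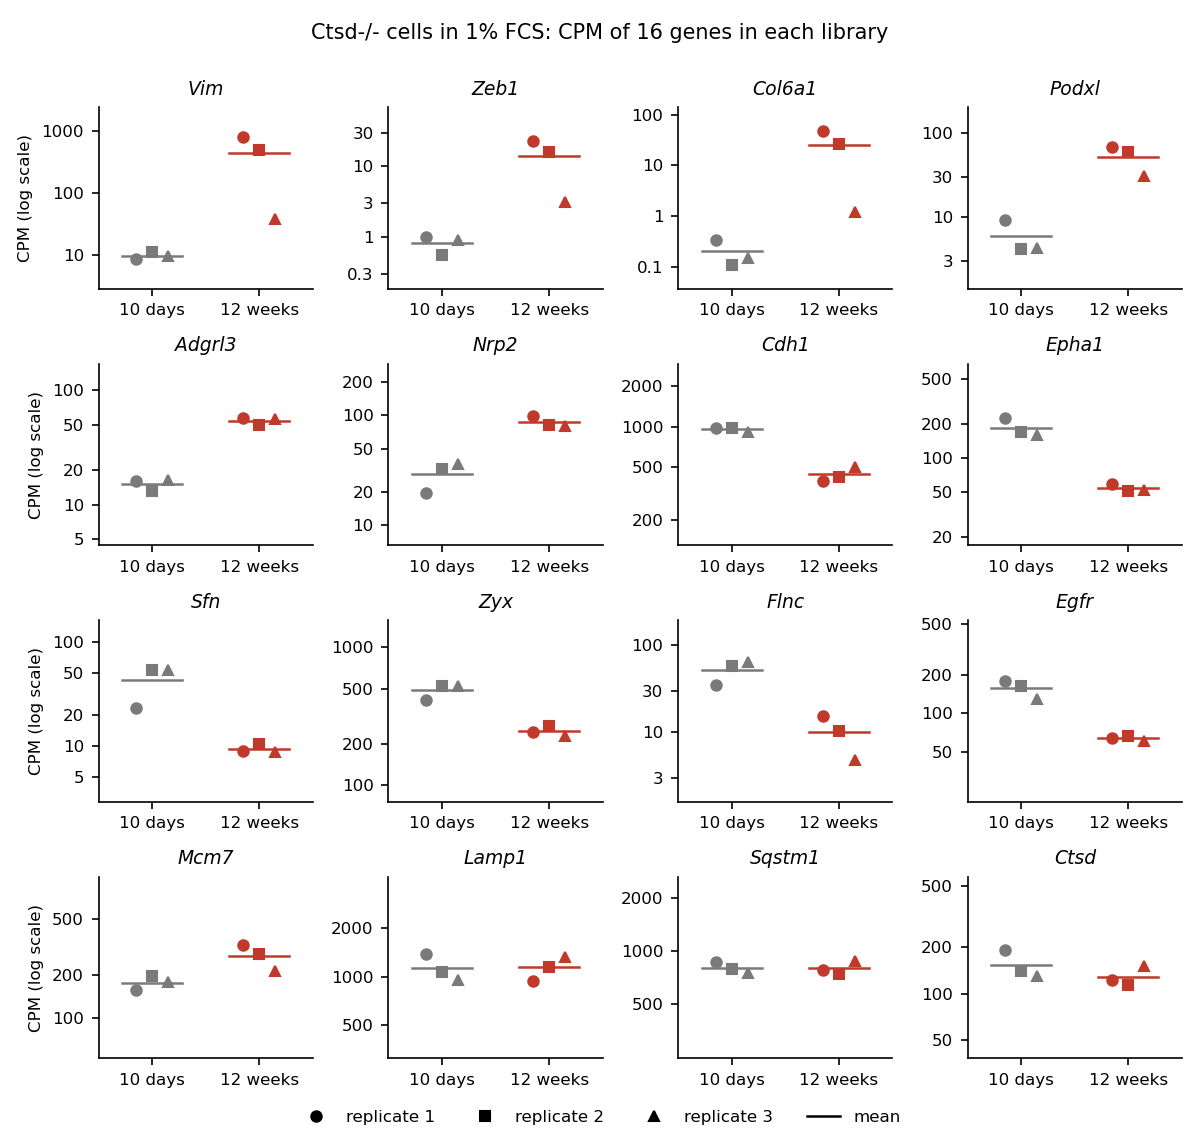
CPM on a log axis of 16 genes in each Ctsd-/- library, 10 days in grey and 12 weeks in red, with the replicate number as the symbol and the mean as a line. Vim, Zeb1 and Col6a1 were lowest in replicate 3 among the 12-week libraries, whereas Adgrl3, Nrp2, Cdh1, Epha1, Sfn, Zyx and Egfr lay close together within the 12-week group and apart from the 10-day group.

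Mesenchymal genes were among those with the largest rises, and the 12-week replicates differed widely in them. Vim, the intermediate filament protein vimentin, counted 8.61, 11.1 and 9.76 CPM at 10 days and 809.8, 506 and 38.1 CPM at 12 weeks. The groups did not overlap, but 12-week replicate 3 lay much nearer to the 10-day libraries than the others. Vim rose by 5.52 (SE 0.948, adjusted p = 0.0154). Zeb1, a zinc finger repressor of epithelial genes, counted 0.998, 0.548 and 0.887 CPM at 10 days and 23.1, 15.9 and 3.15 CPM at 12 weeks, again with replicate 3 lowest and no overlap. It rose by 4.10 (SE 0.594, adjusted p = 0.00855). These are bulk libraries, in which fewer cells of a kind and less RNA per cell cannot be told apart.

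Among 25 tested genes of the list of mesenchymal markers and EMT regulators, Vim and Zeb1 were the 2 called by edgeR, both higher, and DESeq2 called 6 higher and 2 lower. In 8 genes of the list every 12-week replicate lay above every 10-day replicate, in 7 every one lay below, and the median was 0.30 against -0.00 for all genes. Among all genes, 13.5% lay above and 11.9% below, while 1.57% were called higher and 0.810% lower. Pdgfrb, a receptor for platelet-derived growth factor of stromal cells, counted 0.389, 0.137 and 0.0296 CPM at 10 days and 84.9, 3.89 and 0.968 CPM at 12 weeks (7.23, adjusted p = 0.0532, and 0.0153 without 12-week replicate 3). Mgp, the matrix Gla protein, had no read at 10 days and 28.9, 1.88 and 0.387 CPM at 12 weeks, at least 117-fold higher against a floor of 3 counts per library but with an adjusted p of 0.102. Cdh2, N-cadherin, counted 51.7, 33.1 and 30.6 CPM at 10 days and 82.7, 59.7 and 8.49 CPM at 12 weeks, so that replicates 1 and 2 lay above and replicate 3 below all 10-day libraries (0.39, adjusted p = 0.791). The EMT regulator Snai1 had lower values in every 12-week replicate (-0.73, adjusted p = 0.122), as had Snai2 (-0.58, adjusted p = 0.353). Fn1, fibronectin, stood at 16120, 12210 and 13010 CPM at 10 days and 12120, 10240 and 8676 CPM at 12 weeks (adjusted p = 0.471).

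The list of interstitial collagens and their processing enzymes had 2 genes called higher and 1 lower of 25 tested, with a median of 0.44. The shares over all genes tested were 1.57% called higher and 0.810% called lower. Col6a1, a chain of collagen VI, counted 0.341, 0.110 and 0.148 CPM at 10 days and 46.8, 26.6 and 1.21 CPM at 12 weeks. All 12-week values were higher, with replicate 3 far below the others. Col6a1 rose by 6.90 (SE 1.49, adjusted p = 0.0361), and its partner chain Col6a2 reached 31.0, 8.11 and 0.508 CPM (7.02, adjusted p = 0.0545, 0.00662 with a replicate block and 0.0153 without 12-week replicate 3). Col5a1, a fibril-forming minor collagen, counted 6.72, 4.00 and 4.29 CPM at 10 days and 116, 70.7 and 11.1 CPM at 12 weeks. It rose by 3.72 (SE 0.834, adjusted p = 0.0422), a call that did not hold with a replicate block (adjusted p = 0.0627). Col11a1 fell by 1.72 from at most 1.41 CPM (adjusted p = 0.0421, and 0.0571 with a replicate block). Col1a1, the main collagen of fibroblasts, was at 1.21 to 5.96 CPM in all 6 libraries (adjusted p = 1).

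Further matrix genes had the same order of the 12-week replicates. Of 19 tested ADAMTS proteases, which cleave proteoglycans and procollagens, 2 were called higher and none lower (median 0.60), and 1 higher and 1 lower with a replicate block. The main fit called 1.57% of all genes tested higher and 0.810% lower. Adamts14, a procollagen processing enzyme, reached 11, 5.85 and 1.02 CPM from at most 0.560 CPM and rose by 4.09 (adjusted p = 0.0277). Adamts9 reached 83.6, 31.6 and 10.1 CPM from at most 5.31 CPM and rose by 3.21 (adjusted p = 0.0397, and 0.0527 with a replicate block). Both Tnxb, a matrix glycoprotein of the tenascin family, and Fam20a, which assists a kinase of secreted proteins, were nearly without reads at 10 days. Tnxb rose from 1 count to 182 (ratio 166, 95% exact counting interval 29.5 to 6610, adjusted p = 0.00819), and Fam20a from 4 counts to 521 (ratio 119, interval 46.2 to 439, adjusted p = 0.0132). Zcchc24, a zinc finger gene, rose by 5.96 (adjusted p = 0.0132), with 57.6, 17.9 and 2.27 CPM at 12 weeks against at most 0.754 CPM before. Lama3, a laminin chain of basement membranes, departed from this order with 21, 138 and 67.0 CPM at 12 weeks (2.82, adjusted p = 0.0444).

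The calls of the mesenchymal and matrix genes held to an unequal degree when a library was left out. Zeb1 lost its call without 10-day replicate 2 only (adjusted p up to 0.0511), and Tnxb kept it without each library. Vim and Fam20a lost their call without any of the 10-day replicates (adjusted p up to 0.0862 and 0.0797). Zcchc24 lost it without 10-day replicate 2 or 3 (up to 0.0856). Col6a1, Col5a1, Adamts9 and Adamts14 lost theirs without any single library other than 12-week replicate 3 (adjusted p up to 0.158, 0.178, 0.160 and 0.120), and Col11a1 without 10-day replicate 1 or 3 or 12-week replicate 1 or 2 (0.146). Lama3 kept its call only without 12-week replicate 1 (0.172). Over these fits the change of Vim lay between 4.79 and 6.07, that of Zeb1 between 3.54 and 4.58, and that of Col6a1 between 6.06 and 7.56.

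Epithelial adhesion genes fell less in size but were closer together among the replicates. Cdh1, which encodes E-cadherin of the adherens junction, counted 978, 974 and 911 CPM at 10 days and 391.7, 423 and 503 CPM at 12 weeks. The groups were well apart, and 12-week replicate 3 was again the nearest to the 10-day libraries. Cdh1 fell by 1.12 (SE 0.135, adjusted p = 0.00344) and remained called without each library. Of 12 desmosome genes, 3 were called lower and none higher, 7 had all 12-week replicates below the 10-day ones, and the median was -0.34. Over all genes tested, 0.810% were called lower and 1.57% higher, and 11.9% lay below. Dsp, the linker of desmosomes to keratin filaments, counted 290.2, 297 and 329 CPM at 10 days and 138, 161 and 194 CPM at 12 weeks, and fell by 0.89 (adjusted p = 0.0126). The desmosomal cadherins Dsg2 and Dsc2 fell by 0.94 (adjusted p = 0.0172) and by 1.27 (adjusted p = 0.0353). Pkp1 and Ppl had positive changes that were not called (0.25 and 0.33, adjusted p = 0.595 and 0.229).

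Of 27 tight junction genes, Ocln, the strand protein occludin, fell by 0.61 (adjusted p = 0.0282), and Jam2, a junctional adhesion molecule, rose by 1.52 (adjusted p = 0.0422). The others of the list were not called by edgeR, DESeq2 called 2 higher and 2 lower, and the median was -0.19. By edgeR, 1.57% of all genes tested were called higher and 0.810% lower. Of 25 epithelial regulators, Cdh1 and St14 were called by edgeR, both lower. With a replicate block 3 of the 25 were called lower, and DESeq2 called 6 lower and 1 higher. St14, the membrane protease matriptase, counted 523, 482 and 491 CPM at 10 days and 363, 364 and 385 CPM at 12 weeks, a fall by 0.43 (adjusted p = 0.0359). Itgb6, the epithelial integrin subunit, fell by 0.96 (adjusted p = 0.0490, and 0.0534 with a replicate block). None of 10 keratins was called by edgeR, and DESeq2 called 1 lower. Of the 10, 3 had an unadjusted p under 0.05, and the median was -0.36. Krt18, a keratin of luminal cells, counted 2799, 3852 and 4066 CPM at 10 days and 2082, 2309 and 2474 CPM at 12 weeks (-0.64, adjusted p = 0.127). Epcam, an epithelial surface marker, overlapped between the groups, with 763 to 858 CPM at 10 days and 722, 685 and 828 CPM at 12 weeks (-0.13, adjusted p = 0.667).

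Several of these epithelial calls were lost with a library. Dsp lost its call without 10-day replicate 2 or 3 or 12-week replicate 2 (adjusted p up to 0.0608), and Dsg2 without those or 12-week replicate 1 (0.0767). Ocln and Itgb6 kept theirs only without 12-week replicate 3 (up to 0.111 and 0.154), and Jam2 only without 12-week replicate 1 (0.132). Dsc2 and St14 lost theirs without any one library (0.118 and 0.133). The changes themselves stayed between -1.03 and -0.78 for Dsp and between -0.46 and -0.39 for St14.

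Genes of the actin cytoskeleton that were called were all lower. Of 29 genes tested, 4 were called lower and none higher, 15 had every 12-week replicate below every 10-day replicate, and the median was -0.40. Among all genes tested, 0.810% were called lower and 11.9% lay below. DESeq2 called 11 of the 29 lower, and edgeR with a replicate block 5. Zyx, zyxin of focal adhesions and stress fibers, counted 415, 525 and 520.2 CPM at 10 days and 242, 267 and 227 CPM at 12 weeks. It fell by 0.99 (SE 0.136, adjusted p = 0.00819). Flnc, the actin crosslinker filamin C, counted 35, 57.7 and 65.0 CPM at 10 days and 15.5, 10.4 and 4.79 CPM at 12 weeks, with 12-week replicate 3 the lowest of all. Flnc fell by 2.36 (SE 0.354, adjusted p = 0.00920). Cnn2, a calponin that binds actin filaments, counted 305, 429 and 437 CPM at 10 days and 220.4, 199 and 170.2 CPM at 12 weeks, a fall by 0.99 (adjusted p = 0.0267).

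Other genes of the list had smaller differences. Actg1, cytoplasmic gamma actin, counted 798, 1039 and 1201 CPM at 10 days and 604, 668 and 681 CPM at 12 weeks (-0.64, adjusted p = 0.0699). Vcl, vinculin, was at 249, 302 and 298 CPM at 10 days and at 206, 195 and 153 CPM at 12 weeks (-0.61, adjusted p = 0.0763). Neither passed the threshold, although every 12-week value was below every 10-day value in both. Acta1, the alpha actin of skeletal muscle, fell from 83 counts at 10 days to 3 at 12 weeks (ratio 30.3, 95% exact counting interval 10.0 to 150, adjusted p = 0.0198). The muscle genes Acta2, Tagln and Cnn1 were at 0.122 CPM or below in all 6 libraries. Zyx and Flnc remained called without each library, Acta1 lost its call without 10-day replicate 2 or 12-week replicate 1 or 2 (adjusted p up to 0.0829), and Cnn2 kept its call only without 10-day replicate 1 (up to 0.112 otherwise).

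Many actin genes are targets of serum response factor (SRF), which binds the CArG box. The 250 bases before the transcription start were therefore searched, on both strands, in the RefSeq promoters of GRCm38.p6, which hold 24 of the 29 actin genes. A CArG box was found in 6 of these 24 (25%: Acta1, Actg1, Cnn2, Myl9, Vcl and Srf) and in 1.62% of all 27025 promoters. Of these 6, Acta1 and Cnn2 fell and the others were not called, with Myl9 and Srf at 1.23 and -0.10 (adjusted p = 0.474 and 0.659). The promoters of Cnn2 (chr10:79988350-79988599, plus strand), Actg1 (chr11:120348496-120348745, minus strand) and Vcl (chr14:20929148-20929397, plus strand) are shown because they belong to genes whose 12-week values all lay below the 10-day values, with the box in capitals. It lies 56 to 47 bases before the start in Cnn2, 90 to 81 in Actg1 and 227 to 218 in Vcl. A match is a description of the letters and not evidence of binding.
Cnn2: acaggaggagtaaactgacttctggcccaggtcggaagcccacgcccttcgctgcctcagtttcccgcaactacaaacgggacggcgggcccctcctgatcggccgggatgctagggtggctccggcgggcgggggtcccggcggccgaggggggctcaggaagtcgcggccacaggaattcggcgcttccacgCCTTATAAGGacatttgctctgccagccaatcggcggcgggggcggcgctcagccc
Actg1: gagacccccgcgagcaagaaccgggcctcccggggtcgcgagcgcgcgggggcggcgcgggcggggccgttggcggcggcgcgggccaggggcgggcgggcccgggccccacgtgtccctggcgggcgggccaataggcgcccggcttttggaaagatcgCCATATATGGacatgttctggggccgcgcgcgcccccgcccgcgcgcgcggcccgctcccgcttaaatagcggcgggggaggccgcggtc
Vcl: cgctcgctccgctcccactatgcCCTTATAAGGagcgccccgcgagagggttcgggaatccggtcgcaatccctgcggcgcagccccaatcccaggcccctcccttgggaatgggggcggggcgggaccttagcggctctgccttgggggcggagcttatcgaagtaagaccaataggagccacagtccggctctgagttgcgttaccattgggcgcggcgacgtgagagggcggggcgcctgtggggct

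Receptors, an adaptor and an enzyme were among the genes that fell with little spread among the 12-week replicates. Epha1, an ephrin receptor of epithelia, counted 229, 170.3 and 159 CPM at 10 days and 59.2, 50.7 and 52.4 CPM at 12 weeks. It fell by 1.78 (SE 0.156, adjusted p = 0.000826). Acpp, an acid phosphatase, counted 7.35, 8.85 and 9.46 CPM at 10 days and 1.94, 2.14 and 1.84 CPM at 12 weeks, a fall by 2.12 (SE 0.192, adjusted p = 0.000826). In both genes the 12-week replicates were closer to each other than the 10-day replicates. Sfn, the epithelial 14-3-3 protein sigma, fell by 2.22 (adjusted p = 0.00947), from 23.2, 53.5 and 53.7 CPM to 8.91, 10.4 and 8.76 CPM. Egfr, the receptor of epidermal growth factor, fell by 1.31 (adjusted p = 0.0100), from 179, 165 and 129 CPM to 64.2, 66.0 and 60.9 CPM. All 4 remained called without each library.

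ZEB1 and related repressors bind the E-box CACCTG. This motif was present on either strand within the 250 bases before the start in 11 of the 42 genes with a promoter among those that fell over 2-fold (26.2%), in 20 of 124 that rose over 2-fold (16.1%), and in 19.4% of all promoters. Epha1 (chr6:42373269-42373518, minus strand) and Sfn (chr4:133602169-133602418, minus strand) are shown because both belong to the 11 and remained called without each library. The capitals mark the E-box, which is read on the opposite strand in Epha1, 71 to 66 bases before the start, and on the gene's strand in Sfn, 41 to 36 bases before it. Cdh1 and Zeb1 were not searched.
Epha1: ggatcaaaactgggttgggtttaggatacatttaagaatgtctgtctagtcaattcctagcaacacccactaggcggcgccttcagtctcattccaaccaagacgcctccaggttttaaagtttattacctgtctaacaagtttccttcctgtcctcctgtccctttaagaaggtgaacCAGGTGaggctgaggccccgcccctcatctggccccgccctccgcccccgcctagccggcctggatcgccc
Sfn: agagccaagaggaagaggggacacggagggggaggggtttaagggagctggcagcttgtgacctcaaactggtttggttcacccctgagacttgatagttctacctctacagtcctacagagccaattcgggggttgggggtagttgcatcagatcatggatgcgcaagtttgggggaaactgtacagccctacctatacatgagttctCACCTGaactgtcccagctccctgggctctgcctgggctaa

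Other genes of the core that fell were Ifi205 (-3.03), the lactate exporter Slc16a3 (-4.14, from 0.730, 2.44 and 1.36 CPM to at most 0.103 CPM), the adhesion receptor Adgrg2 (-2.43), the microtubule protein Map6 (-1.95), the ankyrin Ank2 (-1.78) and the interleukin receptor Il18r1 (-1.49). Smaller falls were those of Stk39 (-0.94), a kinase of ion transport, Phldb2 (-0.92), Rab11fip5 (-0.79), the apoptosis mediator Bid (-0.68) and Fam107b (-0.68). Their adjusted p-values lay between 0.00344 and 0.0120. The spread was small in Stk39, named for its small p, with 158, 159 and 157 CPM at 10 days and 84.9, 88.8 and 74.1 CPM at 12 weeks. Slc16a3 and Ank2 spread more widely at 10 days, Ank2 with 11.7, 5.89 and 5.85 CPM. Outside the core, Clu, the secreted chaperone clusterin, fell by 1.75 (adjusted p = 0.0201). Clu went from 1791, 1229 and 1114 CPM to 328, 564 and 337 CPM, and lost its call without any 10-day replicate or 12-week replicate 1 (adjusted p up to 0.0768).

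Several genes of the core that rose encode cell surface molecules, and they are given first. Adgrl3, the adhesion G protein-coupled receptor latrophilin 3, counted 16, 13.3 and 16.4 CPM at 10 days and 56.7, 49.6 and 55.8 CPM at 12 weeks. It rose by 1.83 (SE 0.143) with the smallest adjusted p of the comparison (0.000475). Tenm3, a teneurin, counted 1.05, 1.18 and 0.680 CPM at 10 days and 7.37, 9.30 and 7.06 CPM at 12 weeks, a rise by 3.02 (SE 0.364, adjusted p = 0.00344). Teneurins are ligands of latrophilins across cell contacts. Of the 6 tested genes of both families, which were put together after their values were seen, 4 rose (median 1.49): besides these, Adgrl1 by 1.25 (adjusted p = 0.0101) and Tenm1 by 1.73 (adjusted p = 0.0182), while Adgrl2 and Tenm4 had changes of -0.09 and -0.43 that were not called (adjusted p = 0.940 and 0.608). Over all genes tested, 1.57% were called higher. Adgrl1 lost its call without 10-day replicate 2 or 3 (adjusted p up to 0.0571), and Tenm1 without 10-day replicate 1 or 2 (up to 0.0856).

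Nrp2, the neuropilin 2 co-receptor for semaphorins and vascular endothelial growth factor, counted 19.8, 32.7 and 36.1 CPM at 10 days and 98.2, 81.8 and 80.9 CPM at 12 weeks. It rose by 1.56 (SE 0.229, adjusted p = 0.00855). Of the 39 tested semaphorins, plexins, ephrins and their receptors, Nrp2 and Ephb2 were higher (Ephb2 by 0.96, adjusted p = 0.0126) and Epha1 was lower. With a replicate block 4 of the 39 were called higher and 1 lower. The main fit called 1.57% of all genes tested higher and 0.810% lower. Ephb2 lost its call without 10-day replicate 2 or 3 (adjusted p up to 0.0596). Podxl, the anti-adhesive sialomucin podocalyxin, counted 9.22, 4.19 and 4.23 CPM at 10 days and 67.5, 58.8 and 30.5 CPM at 12 weeks, with replicate 3 again the lowest of its group. It rose by 3.15 (SE 0.358, adjusted p = 0.00344). Lpar1, a receptor for lysophosphatidic acid, rose by 3.07 (adjusted p = 0.00344), from 0.414, 0.301 and 0.355 CPM to 3.16, 3.45 and 2.44 CPM.

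Protocadherins, cell surface cadherins best known from neurons, were another family formed after the values were seen. Of 43 tested, 5 were higher and none lower, 21 had every 12-week replicate above every 10-day replicate, and the median was 1.15. Among all genes tested, 1.57% were called higher and 13.5% lay above. Pcdhgc3 rose by 1.07 (adjusted p = 0.00944), from 26.8, 24.8 and 24.3 CPM to 64.2, 53.9 and 41.4 CPM. The others called were Pcdh9 (1.49, adjusted p = 0.0198), Pcdh19 (1.66, adjusted p = 0.0200), Pcdh10 (from 3 counts to 64, ratio 19.5, 95% exact counting interval 6.38 to 97.0, adjusted p = 0.0423) and Pcdhb16 (1.81, adjusted p = 0.0434, and 0.0625 with a replicate block). The clustered protocadherins share exons and similar sequences, so that reads can be lost or divided among them. Each of the 5 lost its call without at least 2 of the 6 libraries, always including 10-day replicates 2 and 3 (adjusted p up to 0.0539 for Pcdhgc3, 0.105 for Pcdh9, 0.106 for Pcdh19, 0.162 for Pcdh10 and 0.176 for Pcdhb16).

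The other rising genes of the core had a wide range of known functions. The potassium channel Kcnh2 rose by 2.56, the presynaptic scaffold Rims2 by 3.53, the dynamin Dnm1 by 2.12, the doublecortin-like kinase Dclk2 by 2.62, the collapsin response mediator Dpysl5 by 4.81, Nkain2 by 3.32 and Fam171b by 2.23. Fam171b counted 3.21, 1.75 and 2.54 CPM at 10 days and 13, 12.2 and 10.0 CPM at 12 weeks. Dse, the epimerase that makes dermatan sulfate, rose by 1.21, B3glct, a glycosyltransferase of thrombospondin repeats, by 0.93, and the secreted factor Angptl2 by 1.32. Sod3, the extracellular superoxide dismutase, rose from 8 counts at 10 days to 761 (ratio 86.9, 95% exact counting interval 43.9 to 202), with 10.1, 4.79 and 3.75 CPM at 12 weeks. The forkhead transcription factors Foxo6 and Foxl1 were at under 1 CPM in all 6 libraries. Foxo6 rose by 3.11 and Foxl1 from 3 counts to 92 (ratio 28, interval 9.29 to 138). The remaining members were Rasa3 (1.40), Syne3 (1.43), Pard3b (2.51), Cd300lb (2.01), Btbd11 (2.05) and Plscr4 (4.60). The adjusted p-values of these genes lay between 0.00344 and 0.0131.

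Ngfr, the p75 neurotrophin receptor, was a called gene in which 12-week replicate 3 was the highest. It counted 0.779, 1.07 and 0.798 CPM at 10 days and 10.3, 6.08 and 31.6 CPM at 12 weeks, a rise by 4.18 (SE 0.632, adjusted p = 0.00944). Without 10-day replicate 2 or 3 its call was lost (adjusted p up to 0.0547). Gm21698, a predicted gene with close copies, was at 0.934, 14.1 and 13.4 CPM at 12 weeks and so was high in replicates 2 and 3 (5.15, adjusted p = 0.0471, and 0.0636 with a replicate block), and its call held only without 12-week replicate 1 (adjusted p up to 0.178 without any other).

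Genes of DNA replication had mostly positive changes at 12 weeks, with no member past the adjusted threshold by edgeR. Of 38 genes, 37 had a positive change, 19 had an unadjusted p under 0.05, and the median was 0.52. In 17 every 12-week replicate lay above every 10-day replicate, as in 13.5% of all genes tested. The summed level was 2157, 2882 and 2775 CPM at 10 days and 4321, 3916 and 2938 CPM at 12 weeks. Replicate 3 of the 12-week group was thus close to 10-day replicate 2. The smallest adjusted p by edgeR was 0.0763, for the clamp loader subunit Rfc3 (0.0435 without 12-week replicate 3), and DESeq2 called 5 of them higher. With the LR number as a covariate 12 were called higher, and within the libraries of the shared LR number 4. Mcm7, a subunit of the replicative helicase, counted 157, 197 and 180.1 CPM at 10 days and 328, 284 and 215 CPM at 12 weeks (0.63, adjusted p = 0.118). Among the 40 genes of mitosis, 39 had a positive change, but none was called by edgeR or DESeq2, none had an unadjusted p under 0.05, and the groups overlapped in all 40. With the LR number as a covariate 2 were called higher. The median was 0.28. Mki67, the proliferation marker, was at 282, 308 and 268 CPM at 10 days and at 588, 408 and 307 CPM at 12 weeks, so that replicate 3 stood among the 10-day libraries and replicate 1 above them.

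Among 27 genes of cell cycle inhibitors, D cyclins and p53 targets, Cdkn2b fell and Eda2r rose. The shares over all genes tested were 0.810% called lower and 1.57% called higher. Cdkn2b, the p15 inhibitor of the cyclin D kinases, counted 58.7, 58.6 and 53.5 CPM at 10 days and 30.2, 27.7 and 30.9 CPM at 12 weeks. It fell by 0.94 (SE 0.116, adjusted p = 0.0120), with both groups narrow and apart, and lost its call without 10-day replicate 2 or 3 or 12-week replicate 2 (adjusted p up to 0.0643). Its neighbor Cdkn2a, which encodes p16 and p19, was lower in each 12-week replicate (-0.65, adjusted p = 0.357), and Cdkn1a, which encodes p21, was close to its 10-day level (-0.21, adjusted p = 0.659). Eda2r, a death receptor of the tumor necrosis factor family, was at 8.67, 14.4 and 0.798 CPM at 12 weeks against at most 0.754 CPM (3.72, adjusted p = 0.0334, and 0.0567 with a replicate block), and its call held only without 12-week replicate 3 (adjusted p up to 0.142 without any other).

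No member of the lysosomal gene lists was called in the edgeR fit that gave the calls above. Lysosomal genes outside these lists were not examined as a group. Of 54 tested hydrolases and activators, 7 had an unadjusted p under 0.05, and the median was 0.03. Of 42 genes of the lysosomal membrane, sorting and proton pump, 4 had an unadjusted p under 0.05, and the median was -0.01. DESeq2 called 1 hydrolase higher and no gene of the second list. With the LR number as a covariate 4 hydrolases were called higher, and within the libraries of the shared LR number 3 hydrolases higher and 1 gene of the second list lower. Lamp1, a main membrane protein of lysosomes, counted 1380, 1062 and 948 CPM at 10 days and 941, 1155 and 1329 CPM at 12 weeks (0.01, SE 0.196, adjusted p = 0.986). Ctsl, a cysteine cathepsin, was at 1604, 1586 and 1650 CPM at 10 days and at 1124, 1803 and 1946 CPM at 12 weeks (0.01, SE 0.229, adjusted p = 0.993). The hydrolase of smallest p was Galc, galactosylceramidase (0.67, adjusted p = 0.0662).

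Of 45 macroautophagy genes, 2 were called, both higher and by less than 2-fold, and the median was -0.04. Over all genes tested, 1.57% were called higher. Wdfy3, an adaptor for the autophagy of aggregates, counted 234, 199.6 and 202 CPM at 10 days and 309, 294 and 306 CPM at 12 weeks, a rise by 0.52 (SE 0.107, adjusted p = 0.0314). Atg9a, the membrane protein of phagophore growth, rose by 0.44 (adjusted p = 0.0413, and 0.0503 with a replicate block). The cargo receptor Sqstm1 and Map1lc3a, which encodes an LC3, had changes of 0.00 (SE 0.169, adjusted p = 1) and -0.14 (SE 0.160, adjusted p = 0.701). Of 35 genes of mTORC1 and nutrient sensing, Depdc5 was the one called. It encodes a subunit of the GATOR1 complex, which restrains mTORC1 when amino acids are short, and counted 32.6, 35.2 and 33.4 CPM at 10 days and 53, 49.9 and 55.6 CPM at 12 weeks. The rise was by 0.65 (SE 0.102, adjusted p = 0.0114). Depdc5 lost its call without 10-day replicate 3 only (adjusted p = 0.0596), Atg9a without any one library (up to 0.166), and Wdfy3 kept its call only without 10-day replicate 1 (up to 0.140 otherwise).

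Metabolic lists held few called members, where 1.57% of all genes tested were called higher and 0.810% lower. Of 28 genes of cholesterol synthesis and uptake, 13 had every 12-week replicate above the 10-day ones, none lay below, and the median was 0.27. Over all genes tested, 13.5% lay above and 11.9% below. One was called: Abcg1, a sterol exporter at 1.78 to 2.22 CPM at 10 days and at 6.08, 9.86 and 3.77 CPM at 12 weeks (1.73, adjusted p = 0.0447, and 0.0620 with a replicate block). Of 33 genes of fatty acid synthesis and storage, Acss2, the acetyl-CoA synthetase of the cytosol and nucleus, rose by 1.70 (adjusted p = 0.0277), from 7.59, 7.89 and 11.1 CPM to 26.3, 29.5 and 30.5 CPM. Acacb, the mitochondrial acetyl-CoA carboxylase, rose by 1.29 (adjusted p = 0.0334). Among 30 NRF2 targets, the carbonyl reductase Cbr3 rose by 2.19 (adjusted p = 0.0100), and the glutathione transferase Gstm1 by 2.23 (adjusted p = 0.0424, and 0.0627 with a replicate block). Aldh3a1, an aldehyde dehydrogenase, reached 32.9, 7.06 and 0.629 CPM from at most 0.207 CPM and rose by 6.36 (adjusted p = 0.0334).

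Transport genes that rose were the amino acid transporter Slc36a4 (1.18, adjusted p = 0.0198) and the endosomal iron reductase Steap3 (1.06, adjusted p = 0.0308), each the only one called in lists of 27 and 18. In the list of glycolysis and hypoxia, in which Slc16a3 fell, Egln3, a prolyl hydroxylase, rose by 1.73 (adjusted p = 0.0499, and 0.0573 with a replicate block). None of 80 ribosomal protein genes was called by edgeR or DESeq2 (9 had an unadjusted p under 0.05), yet 76 had a negative change and the median was -0.21. With the LR number as a covariate 12 were called lower. The 75 genes of oxidative phosphorylation had a median of -0.04 and no call by edgeR, with 9 at an unadjusted p under 0.05, and DESeq2 called 2 higher and 2 lower. Abcg1, Acss2, Gstm1, Aldh3a1 and Egln3 kept their calls only without 12-week replicate 3, with adjusted p up to 0.168, 0.123, 0.171, 0.148 and 0.198 otherwise. Cbr3 lost its call without 10-day replicate 2 or 3 (up to 0.0592), Slc36a4 without those or 12-week replicate 1 or 2 (0.104), and Acacb and Steap3 without any one library (0.148 and 0.135).

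The study examined the cyclic AMP response element binding protein (CREB), which the kinase PKA can phosphorylate. Creb1 itself was flat, at 53, 40.8 and 54.8 CPM at 10 days and at 44.8, 51.3 and 53.2 CPM at 12 weeks (0.01, SE 0.134, adjusted p = 0.991). Of 39 genes of the CREB family, its coactivators and PKA signaling, Pde8a rose and Pde7a fell. Both degrade cyclic AMP. Pde7a counted 242, 165 and 156 CPM at 10 days and 95.9, 121 and 121 CPM at 12 weeks, a fall by 0.74 (adjusted p = 0.0437, and 0.0625 with a replicate block). Pde8a rose from 5 counts to 57 (ratio 10.4, 95% exact counting interval 4.21 to 33.3, adjusted p = 0.0293). In the whole family of cyclic nucleotide phosphodiesterases, formed after the values were seen, 3 of 12 tested were higher and 1, Pde7a, lower. The shares over all genes tested were 1.57% and 0.810%. Besides Pde8a, Pde3b rose by 2.55 (adjusted p = 0.0196) and Pde8b from 3 counts to 42 (ratio 12.8, interval 4.09 to 64.5, adjusted p = 0.0234), all 3 at under 2 CPM. Pde7a lost its call without any one library (adjusted p up to 0.148), Pde8a without any 10-day replicate (up to 0.129), Pde3b without 10-day replicate 2 or 3 or 12-week replicate 2 (up to 0.0779), and Pde8b without any library but 12-week replicate 3 (up to 0.110).

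The study chose a list of CREB target genes on these samples, so that the list is not independent evidence of its direction. It used a looser threshold for the adjusted p and a change corrected for that of Ctsd+/+ cells. The calls below are for the uncorrected change, so they do not repeat the comparison of the study. None of its 32 genes was called by edgeR (14 had an unadjusted p under 0.05), 25 had a positive change, and the median was 0.45. In 8 every 12-week replicate lay above every 10-day replicate, and in 3 every one lay below. Over all genes tested, 13.5% lay above and 11.9% below. DESeq2 called 4 of them higher and 1 lower, and edgeR called 7 higher with the LR number as a covariate.

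Signaling lists had few calls. Among all genes tested, 1.57% were called higher and 0.810% lower. In TGF-beta and BMP signaling, Bmp2 was the one called of 47, a rise by 4.76 to at most 5.91 CPM (adjusted p = 0.0230), and 2 were called higher with a replicate block. In Wnt signaling the receptor Fzd1 rose by 0.80 (adjusted p = 0.0289) and the transcription factor Lef1 by 2.24 (adjusted p = 0.0372) of 40 tested. Of 19 genes of the insulin-like growth factor axis, Igfbp4, a secreted binding protein, rose by 1.65 (adjusted p = 0.0326), from 66.4, 117 and 107 CPM to 304, 376 and 227 CPM. Of 32 genes of other growth factor axes, the receptor kinase Tyro3 rose by 0.51 (adjusted p = 0.0338) and Fgf13 by 2.40 at under 1 CPM (adjusted p = 0.0422, and 0.0626 with a replicate block). Egfr was the one called of 19 genes of its receptor family and ligands. Of 32 genes of cytokines and inflammation, Tslp, an epithelial cytokine, rose by 2.65 (adjusted p = 0.0413, and 0.0504 with a replicate block). Spp1, osteopontin, counted 307, 238 and 228 CPM at 10 days and 1371, 1128 and 592 CPM at 12 weeks, a change of 2.00 that missed the threshold (adjusted p = 0.0571) and passed it with a replicate block (adjusted p = 0.0420) or without 12-week replicate 3 (0.0407). Bmp2 lost its call without any 10-day replicate (adjusted p up to 0.114), Fzd1 without any library (0.112), Lef1 without 10-day replicate 2 or 3 or 12-week replicate 1 or 2 (0.159), and Igfbp4 and Tslp without any but 12-week replicate 3 (0.115 and 0.168). Tyro3 kept its call only without 10-day replicate 1 (adjusted p up to 0.158) and Fgf13 only without 12-week replicate 1 (up to 0.162).

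None of 35 genes of the interferon response and antigen presentation was called by edgeR, 2 had an unadjusted p under 0.05, and DESeq2 called 1 lower. The PYHIN genes, a cluster of nucleic acid sensors induced by interferon and grouped after their values were seen, had 2 of 9 called lower (median -0.14). Over all genes tested, 0.810% were called lower. Ifi205 counted 6.57, 4.68 and 4.02 CPM at 10 days and 0.479, 1.00 and 0.387 CPM at 12 weeks (adjusted p = 0.00344), and Ifi202b fell by 2.30 (adjusted p = 0.0354). The interferon-inducible GTPase Gvin1 and its copy Gm4070 fell by 2.88 and 2.86 (adjusted p = 0.0198 and 0.0182), from 5.72, 2.93 and 1.95 CPM to 0.287, 0.824 and 0.339 CPM in the case of Gvin1. These genes have near-identical copies, and reads shared among copies were not counted, so their levels are uncertain. Gvin1 lost its call without 10-day replicate 2 or 12-week replicate 1 (adjusted p up to 0.0740), Gm4070 without those or 12-week replicate 2 (0.0808), and Ifi202b without any but 12-week replicate 3 (0.131).

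Markers of other cell types were summed over each list. Of 15 fibroblast markers, 8 had at most 3 counts in every library, including Dcn, Lum, Thy1 and Fap, and 2 had none at all. The summed level of the 15 was 12.3, 5.23 and 5.88 CPM at 10 days and 104, 17.5 and 10.0 CPM at 12 weeks. Pdgfrb made up 84.9 of the 104 CPM of 12-week replicate 1, and the sum was highest in that library. Of the 7 tested, 6 had a positive change, with a median of 1.00, and none was called by edgeR (3 had an unadjusted p under 0.05 and DESeq2 called 2 higher). The 18 leukocyte markers summed to 34.4 to 51.1 CPM at 10 days and to 35.2 to 54.5 CPM at 12 weeks, the 12 endothelial markers to 10.5 to 15.3 CPM and to 9.58 to 12.3 CPM, the 10 myoepithelial markers to 6.50 to 9.43 CPM and to 4.67 to 6.85 CPM, and the 11 adipocyte markers to 0.657 to 3.21 CPM and to 3.23 to 5.52 CPM. The 4 epithelial markers summed to 6987 to 9616 CPM at 10 days and to 4960 to 5567 CPM at 12 weeks. The part of other cells in the mesenchymal values was not tested beyond these levels.

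**Figure D2:**
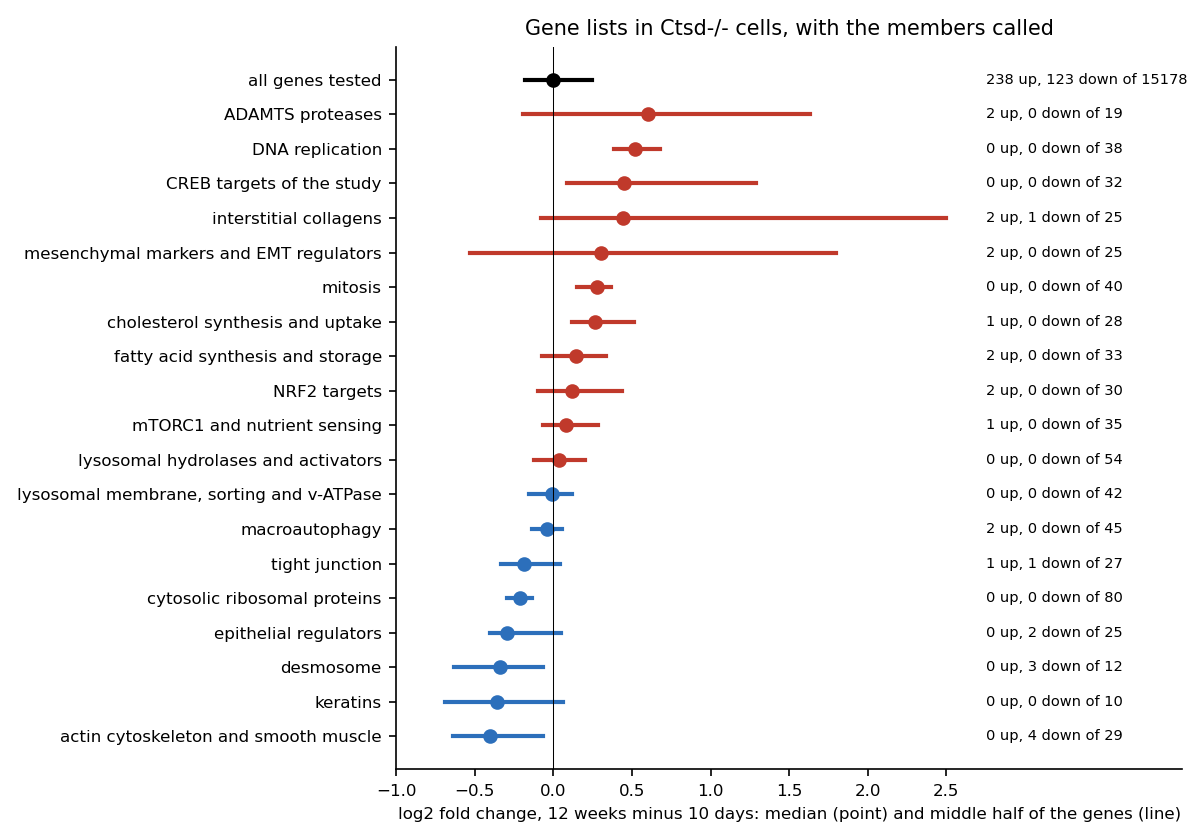
Median log2 fold change (point) and quartiles of the genes (line) of 19 gene lists and of all genes tested, in Ctsd-/- cells at 12 weeks against 10 days, with the number of members called beside each. The actin cytoskeleton list has the lowest median (-0.40) and DNA replication one of the highest (0.52), while the 2 lysosomal lists lie at 0.03 and -0.01.

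The spread between the long-term replicates was measured over 11518 genes with an average log2 CPM above 1.3 in all 12 cell samples, the Ctsd+/+ ones included. The root mean square log2 difference was 0.36 between 12-week replicates 1 and 2, 0.43 between 2 and 3, and 0.58 between 1 and 3. More than 2-fold apart were 233 genes (2.02%), 324 genes (2.81%) and 582 genes (5.05%). In the 10-day group the difference was 0.26 between replicates 2 and 3 and 0.46 and 0.43 between these and replicate 1, with 84, 450 and 384 genes over 2-fold apart. The biological coefficient of variation was 0.19 at 12 weeks and 0.16 at 10 days. In the Ctsd+/+ cells it was 0.173 at 12 weeks and 0.249 at 10 days, and it was 0.217 in the fit over all 12 cell samples. Between the 2 Ctsd-/- groups the root mean square log2 difference ran from 0.50 to 0.73, so that 12-week replicate 3 was nearer to each 10-day library (0.51, 0.53 and 0.50) than to 12-week replicate 1 (0.58).

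On the first principal component, with 57.1% of the variance, the 10-day replicates lay at -14.2, -30.5 and -31.4 and the 12-week replicates at 43.2, 28.2 and 4.71. The second, with 17.6%, put 10-day replicate 1 at 22.2 and 12-week replicate 3 at -27.7. Replicate 3 of the 12-week group thus lay between the groups on the first component and farthest from the middle on the second. Against 12-week replicate 1, it had 169 genes over 2-fold higher and 413 over 2-fold lower. These 2 outlying libraries are also the ones with an LR number of their own, and the part of that number in the spread was not tested.

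**Figure D3:**
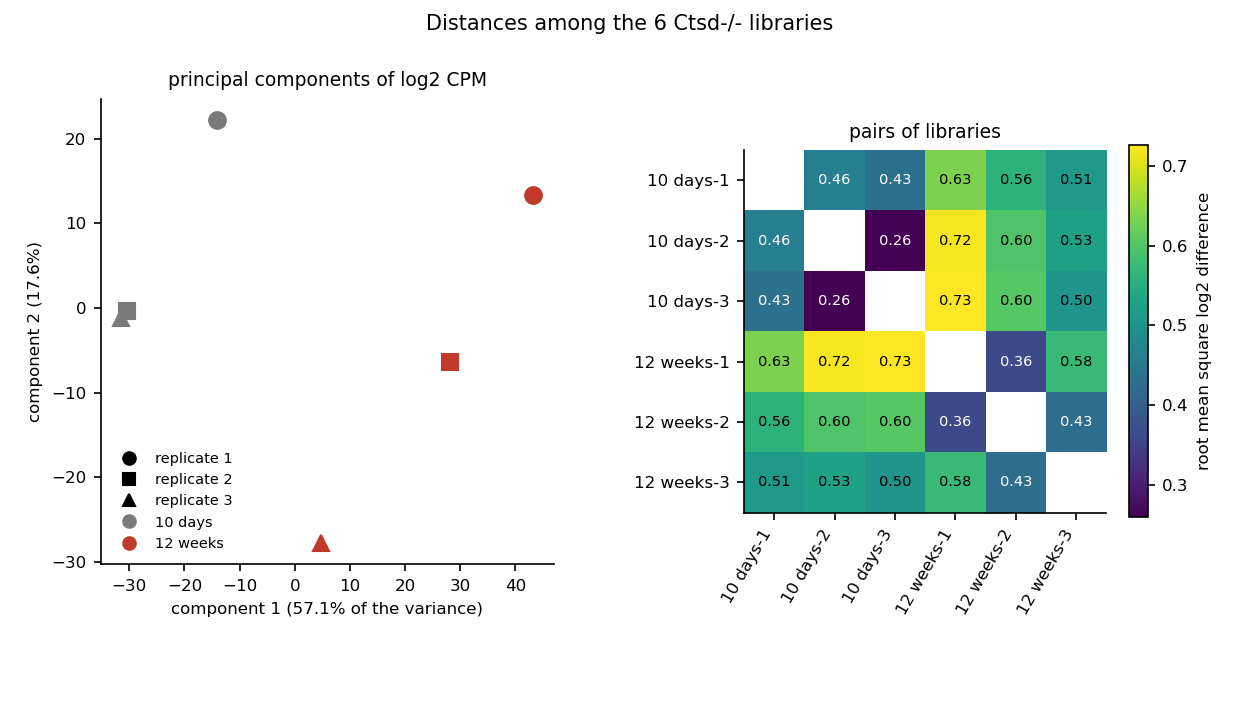
The 6 Ctsd-/- libraries on the first 2 principal components of log2 CPM, with symbols for the replicate number and colors for the time (left), and the root mean square log2 difference of each pair of libraries over 11518 genes (right). Differences run from 0.26 for 10-day replicates 2 and 3 to 0.73 for 10-day replicate 3 and 12-week replicate 1, and 12-week replicate 3 lies between the groups.

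How far each long-term replicate had moved was read from the genes called over 2-fold, as a description, since the calls rest on the same values. For the 169 higher genes the median difference from the 10-day mean was 2.21, 2.12 and 1.76 in 12-week replicates 1, 2 and 3. Replicate 1 was the highest of the 3 in 90 of the 169 genes and replicate 3 the lowest in 94. The 12-week replicates were over 2-fold apart in 78 of the 169, and the 10-day replicates in 58. For the 56 lower genes the median differences were -1.78, -1.68 and -1.66, and 12 of the 56 were over 2-fold apart among the 12-week replicates.

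**Figure D4:**
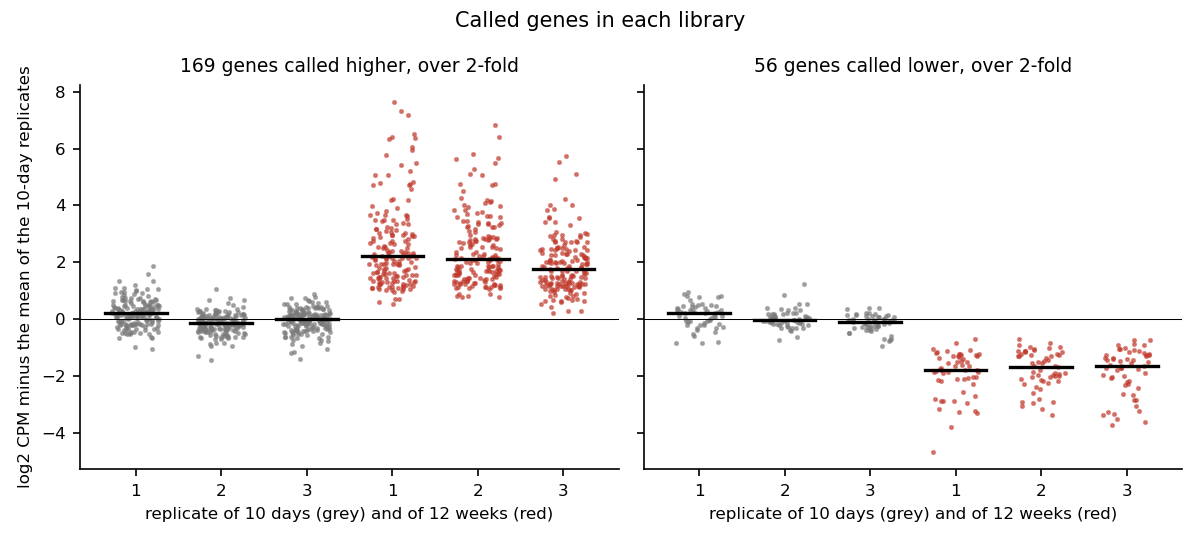
Difference of each library from the mean of the 10-day replicates (log2 CPM) for the 169 genes called higher and the 56 called lower by more than 2-fold, with 1 point per gene, the median as a bar, 10 days in grey and 12 weeks in red. The medians at 12 weeks are 2.21, 2.12 and 1.76 for higher genes and -1.78, -1.68 and -1.66 for lower genes.

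Among the genes with the widest range over the 12-week replicates were Inmt, a methyltransferase, Ildr2, Pdgfrb, Atoh8, Alpl, alkaline phosphatase, Mgp and Col6a2. None of these 7 was called. Ildr2 was highest in replicate 2, at 3.33, 21.8 and 0.0484 CPM in replicates 1, 2 and 3. The other 6 were highest in replicate 1 and lowest in replicate 3, as Inmt at 30.6, 3.17 and 0.0726 CPM and Alpl at 32.2, 9.01 and 0.411 CPM. At 10 days all 7 were at 0.389 CPM or below in every library. Without 12-week replicate 3, Ildr2, Pdgfrb, Alpl and Col6a2 passed the threshold (adjusted p between 0.0131 and 0.0153). With a replicate block Alpl (adjusted p = 0.0159) and Col6a2 (0.00662) did so as well.

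Changes were not spread evenly over the chromosomes, a pattern that was chosen after the values were seen. Of 11518 genes, 11484 had a chromosome, of which 177 were called higher and 104 lower. The 748 on chromosome 5 had a median change of 0.27, with 0.20, 0.26 and 0.36 in 12-week replicates 1, 2 and 3. Of the 748, 42 were called higher (5.61%) and 2 lower (0.267%), and 366 had every 12-week replicate above every 10-day replicate (48.9%), against 13.3% of all genes with a chromosome. All 8 segments of 20 Mb along the chromosome had medians between 0.22 and 0.38. Adgrl3, Kcnh2, Sod3, Depdc5, Wdfy3, B3glct, Fzd1 and Acacb are on this chromosome, and 12-week replicate 3 had the largest median shift.

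Chromosome 13 was shifted the other way. Its 418 genes had a median of -0.17, with -0.17, -0.07 and -0.29 in the 12-week replicates, none called higher and 11 lower (2.63%), and 128 with every 12-week replicate below (30.6%). Every 12-week replicate lay below in 13.3% of all genes with a chromosome. Dsp and Ocln are on chromosome 13. Chromosome 6, with Epha1, Zyx, Flnc and Bid, had a median of -0.15 (28.8% of 556 genes below), and chromosome 7 of -0.13 (22.6% of 846 genes below). The remaining 16 lay between -0.10 and 0.13. The highest of these was chromosome X at 0.13, with every 12-week replicate above in 27% of its 382 genes. No 10-day replicate departed from the 10-day mean by more than 0.06 on any chromosome. Over all alternatives the median stayed between 0.22 and 0.31 for chromosome 5 and between -0.22 and -0.12 for chromosome 13. In the Ctsd+/+ cells the change over the same time had medians of 0.275 on chromosome 5, -0.02 on chromosome 13, 0.47 on chromosome 19 and -0.46 on chromosome 2. The cause of these shifts was not tested.

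**Figure D5:**
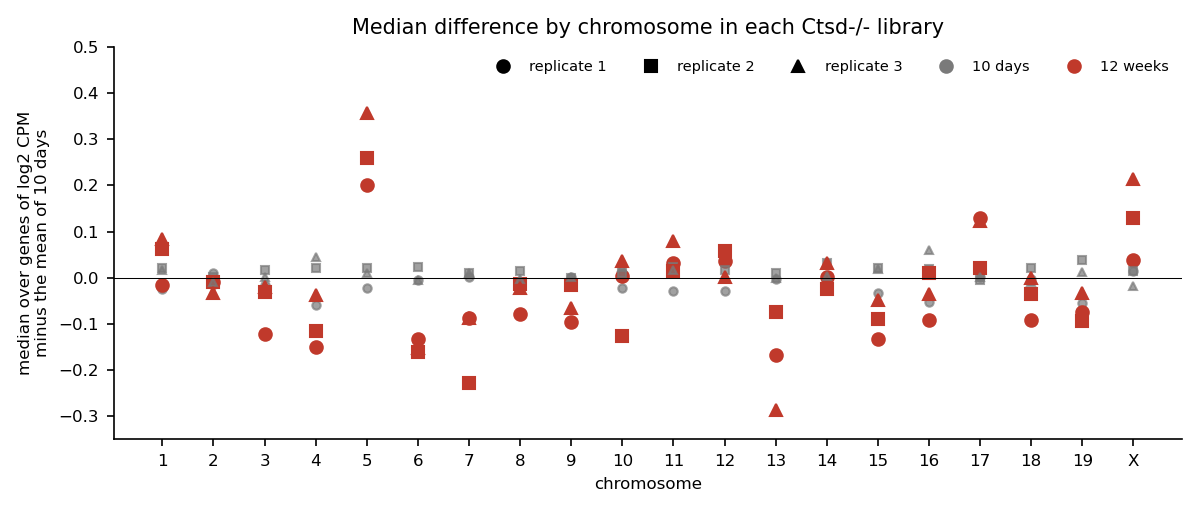
Median over genes of the log2 CPM difference from the 10-day mean, by chromosome, for each Ctsd-/- library (10 days in grey, 12 weeks in red, symbols for the replicate number). All 3 long-term replicates lie at 0.20 to 0.36 on chromosome 5 and at -0.29 to -0.07 on chromosome 13.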

How the data were processed

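RNA was sequenced from Ctsd-/- and Ctsd+/+ PyMT breast tumor cells, 3 libraries in each of 4 groups. Per the labels and the study's methods, the authors trimmed the reads, aligned them with STAR to mm10 (submitters' processing notes; version not given in the sources used here) and deposited raw read counts per gene, summed over uniquely mapped reads. Column 4, the counts of the opposite strand, was used (97.2% to 97.3% of stranded counts in the 6 libraries compared), so that genes in antisense are told apart, while reads shared by near-identical genes are not counted. Of 45706 identifiers, 45143 had a symbol in GENCODE M21, which also gave coordinates (GRCm38). Reads without a gene were left out of library sizes (15.1% to 16.7% of reads in the 6 libraries compared).

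Counts were filtered (filterByExpr), scaled by TMM and fitted over all 12 cell samples, which share 1 estimate of the spread, by the quasi-likelihood test of edgeR 4.0.16 in R 4.3.3 (Benjamini-Hochberg adjustment over 15178 genes, common biological coefficient of variation 0.217). The 2-fold rule is an absolute log2 fold change above 1. Log2 CPM used a prior count of 2. The scripts were tested on simulated counts. The alternatives were DESeq2 1.42.0, limma-voom 3.58.1, other scaling, filters (none, or 10 counts in every cell sample), unstranded counts (column 2), the 6 samples alone, a replicate block, the LR number, and each replicate left out. Same-numbered replicates deviated together from their group means (r = 0.26, 0.12 and 0.25 over genes for numbers 1, 2 and 3). Unlike numbers had r between -0.25 and 0.06, values that the centering on group means pulls down. The numbers may therefore pair the samples, but this is not settled. The calls given are from the fit without a block, and blocked values stand where a call changes with the block.

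Genes were named as Ctsd, the 12 highest and 12 lowest changes over 2-fold without overlap and with an average log2 CPM above 1.3, the 10 smallest p-values, up to 4 called members of each gene list or else its smallest p, genes the study measured by other means, and the 8 widest ranges at 12 weeks. Some genes that this rule names are not reported here. Other genes were chosen after their values were seen, among them the core of 44. The members and lists were chosen with earlier results of these data known.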

Additional observations from a re-analysis of the deposited data

Results flagged for a closer look

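Of the 24 genes with the highest and lowest changes, 15 changed differently in Ctsd-/- and Ctsd+/+ cells by a test of the difference itself, the interaction of genotype and time in the same edgeR fit. The values are the log2 fold change in Ctsd-/- cells minus that in Ctsd+/+ cells. The 24 genes were chosen for their change in Ctsd-/- cells, which is a part of the difference tested, so the choice favored a called difference. The share of all genes with such a difference is not given here, so the count of 15 is a description. Each genotype is a single line, so that genotype and line cannot be told apart. Groups of 3 are too small to test for outlying samples.

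Among the genes that rose in Ctsd-/- cells, the difference was 15.21 for Vim (adjusted p = 2.509e-05), 15.31 for Col6a1 (0.000165), 10.67 for Zcchc24 (0.000129), 10.38 for Fam20a (0.000134), 6.176 for Aqp1 (0.00383), 4.352 for Zbtb7c (0.0231) and 3.658 for Sod3 (0.0206). Vim in the Ctsd+/+ cells went from 2750, 2967 and 3481 CPM at 10 days to 3.03, 0.906 and 7.18 CPM at 12 weeks, so that the order of the genotypes was reversed by 12 weeks. The change in the Ctsd+/+ cells was -9.688 for Vim, -8.412 for Col6a1, -4.713 for Zcchc24 and -3.623 for Fam20a. For Aqp1 it was -1.798 (adjusted p = 0.0888 by edgeR). These falls are a part of the differences given, which are larger than the rises in Ctsd-/- cells. Zbtb7c and Sod3 had positive changes in both genotypes.

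Among the genes that fell, the difference was -4.467 for Gm4070 (adjusted p = 0.000491), -4.221 for Zfp251 (0.000253), -3.936 for Gvin1 (0.00129), -3.817 for Pglyrp1 (0.0343), -2.427 for Acpp (4.601e-05), -2.078 for Sfn (0.00544) and -1.392 for Epha1 (0.000584). For Ank2 it was 1.376 (0.0145), since the change in Ctsd+/+ cells, -3.16, was the larger fall. Gm4070, Gvin1, Pglyrp1 and Acpp had positive changes in Ctsd+/+ cells (1.605, 1.059, 1.874 and 0.312), which are a part of their differences. Zfp251, Sfn and Epha1 had negative ones (-0.285, -0.139 and -0.390). In the Ctsd-/- comparison Aqp1 lost its call without any library but 12-week replicate 3 (adjusted p up to 0.182) and with a replicate block (0.0785), Pglyrp1 without any one library (up to 0.186) and Zbtb7c without any 10-day replicate (up to 0.101). The leave-outs of Vim, Col6a1, Zcchc24, Fam20a, Gm4070 and Gvin1 stand beside their results above, and the near-identical copies Gvin1 and Gm4070 can share reads.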

How the results depend on the processing

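No called result given in the text changed its direction under any alternative, and no called gene was called the other way. Of all called genes 1 changed its sign, with counts regardless of strand. Medians near 0 such as those of the lysosomal hydrolases and the lysosomal membrane changed sign in 3 and 4 of 18 alternatives. The counts of calls were the values that moved. Genes higher at 12 weeks (238) numbered 664 with DESeq2, 492 with no filter on low counts, 156 with at least 10 counts in every cell sample, 515 within the libraries of the shared LR number, 719 with the LR number as a covariate, and 31 to 274 with 1 replicate left out. Genes lower (123) numbered 413 with DESeq2, 188 with no filter, 204 in the 6 samples alone, 241 within the shared LR number, 479 with the covariate, and 26 to 120 with 1 replicate left out. Genes over 2-fold higher (169) numbered 397, 383, 84, 405 and 456 with DESeq2, no filter, 10 counts, the shared LR number and the covariate, and 27 to 233 with 1 replicate left out. Genes over 2-fold lower (56) numbered 105, 92, 33, 85 and 101 with DESeq2, no filter, 10 counts, the 6 samples alone and the covariate, and 20 to 58 with 1 replicate left out. Fewer genes are tested under the stricter filter and fewer samples fitted in the leave-outs. The cause of the other shifts was not tested. Limma-voom called 182 higher and 121 lower, and the other alternatives stayed within 1.5 times.

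With the replicate block, 254 genes were higher and 143 lower, of which 192 and 103 were called without it. It changed the call of 24 of the 204 genes followed, among them Emx2 (adjusted p = 0.0655), Aqp1 (0.0785), Plagl1 (0.0315), Klf6 (0.0432), Rbpj (0.0491), Hspb1 (0.0217) and Hoxa3 (0.0290). The others of the 24 are given beside their results, and it changed the call of no further gene among the 204. In the 6 samples alone with the replicate block, an alternative chosen after seeing the data, 459 were higher, 244 lower, 304 over 2-fold higher and 93 over 2-fold lower. Over all 15178 genes rather than those above the average of 1.3, the root mean square difference of 12-week replicates 1 and 2 was 0.48, and 777, 1312 and 873 genes were over 2-fold apart between replicates 1 and 2, 1 and 3, and 2 and 3.

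Among 204 genes followed under 18 alternatives, 3047 values kept their side of the threshold, 364 lost and 139 gained a call. No adipocyte marker was left under the filter of 10 counts.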
